A study of Homo sapiens with 9 samples.

Results

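The scramble libraries of DU145 cells were described on their own, as the baseline transcriptome against which the effect of *FZD6* knockdown is read in this series. They were taken by their labels, which gave 3 libraries of 9 in all. DU145 is a cell line derived from human prostate carcinoma. The cells carry the label WT for genotype, were grown in RPMI-1640 with fetal bovine serum, and express a scrambled shRNA from the lentiviral vector pLKO.1, a hairpin directed at no human gene. The remaining libraries carry 1 of 2 hairpins against *FZD6*, a Frizzled receptor for Wnt proteins, and were not compared here. Nothing in the labels says that the 3 scramble libraries came from separate cultures, so the spread between them may be technical. All cells in them carry vector and hairpin, and no library of untransduced cells was set beside them.

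Polyadenylated RNA was measured by stranded RNA-seq, and levels were given as FPKM, the fragments mapped to a transcript divided by its length in kilobases and by the depth of the library. Because of the division by length, levels of different genes may be set side by side, but only roughly. Very short transcripts and genes with several copies are less comparable, as described below. The FPKM of all RefSeq transcript entries of a gene were summed. The files hold no counts. The width of their confidence bounds was taken as counting error, an assumption that was not tested. From it the depth was estimated at 36.7, 42.1 and 42.3 M fragments in scramble 1, 2 and 3. At the lowest of these depths 3 fragments on a transcript of 2000 bases would read about 0.0469 FPKM, a limit that covers counting error only.

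The most abundant mRNAs of a cultured carcinoma line usually encode housekeeping proteins of the ribosome, the cytoskeleton, glycolysis and protein folding. What sets a line apart lies in the transcription factors and structural proteins of its lineage, the factors it secretes and the receptors by which it senses others. The prostate gland holds luminal cells, which secrete kallikreins under the control of androgens, and basal cells, which rest on the basement membrane and make p63 and the keratins 5 and 14. Gene lists for these lineages, for other cell types and for secreted factors, receptors and regulators were drawn up, 48 lists with 1209 genes in all.

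The detected transcriptome was about as large in each library. In the table as a whole 11936 of 27873 genes had at least 1 FPKM in every library (42.8%), and among those without a coding transcript 1043 of 8739 (11.9%). Of 19134 protein-coding genes, 11008, 11051 and 11030 reached 1 FPKM in scramble 1, 2 and 3, and 10893 did so in all libraries (56.9%). Levels of at least 10 FPKM in every library were found for 5687 coding genes (29.7%), of at least 100 FPKM for 763 (3.99%) and of at least 1000 FPKM for 46 (0.24%). At the other end 5766 coding genes stayed below 0.1 FPKM in every library (30.1%), and 3168 of these were listed at 0 throughout (16.6%). The remaining 2475 (12.9%) lay between these limits in at least 1 library. Below, a gene called expressed had at least 1 FPKM in every library, and a gene called not detected had less than 0.1 FPKM in every library. Counts of list members are to be read against these shares of all coding genes, 56.9% expressed and 30.1% not detected. A count near them does not set a list apart.

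**Figure D1:**
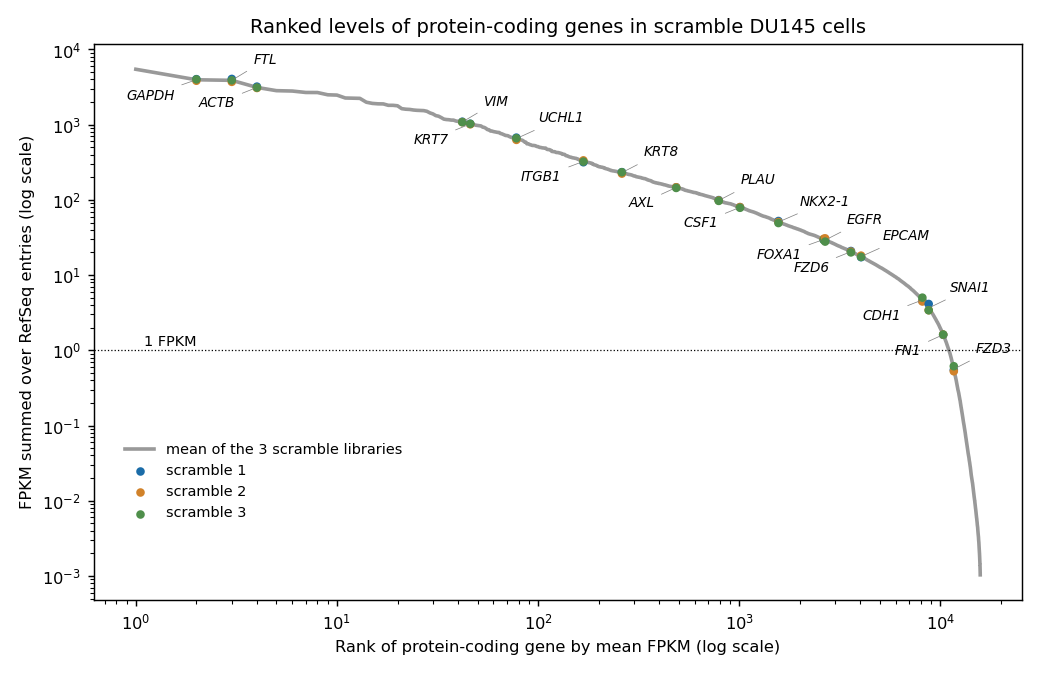
Mean FPKM of each protein-coding gene (log axis) against its rank, with named genes marked. The genes above 1000 FPKM are mostly those of translation, glycolysis, iron storage and cytoskeleton, *VIM* ranks 42 and *KRT7* ranks 46, and the curve falls through a mean of 1 FPKM after 11040 genes.

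Among the coding genes measured, the mRNA pool was led by those for protein synthesis, glycolysis, iron storage and the actin cytoskeleton. Only 1 entry lies on the mitochondrial chromosome, so most mRNAs encoded there are not part of the shares given here. The 10 most abundant coding genes held 7.52% ± 0.114 (SD, n = 3) of all coding FPKM, the 20 most abundant 12.1% ± 0.157, the 100 most abundant 28.8% ± 0.296 and the 1000 most abundant 63.3% ± 0.377. Among the first 20 were the ribosomal protein genes *RPS18*, *RPL35*, *RPS29*, *RPL8*, *RPL30*, *RPS24*, *RPLP2* and *RPS2*. With them stood the glycolytic enzymes *GAPDH*, *ENO1*, *ALDOA* and *PKM*, and the ferritin chains *FTL* and *FTH1*, which store iron. The actins *ACTB* and *ACTG1*, the actin-binding *PFN1* and *TMSB10*, and *S100A6*, a calcium-binding protein, also stood there. Apart from *RPS18*, *GAPDH*, *FTL* and *ACTB* the means of these genes ran from 2835 FPKM for *RPL35* down to 1785 FPKM for *PKM*.

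*GAPDH*, at chr12:6534517-6538371 of hg38, read 4032, 3840 and 4001 FPKM in scramble 1, 2 and 3 (3958 ± 103 FPKM, mean ± SD, n = 3). *FTL*, the ferritin light chain, read 4062, 3713 and 3890 FPKM (3888 ± 175). The ranges of both genes overlapped, so their order was not resolved, and scramble 2 was lowest for each. *ACTB*, the cytoplasmic beta-actin, followed at 3132 ± 67.8 FPKM, below every value of *FTL*. *FTH1*, the ferritin heavy chain with the ferroxidase site, had 2804, 2580 and 2649 FPKM. The highest sum of all belonged to *RPS18*, a protein of the small ribosomal subunit, at 5459 ± 141 FPKM, but 58.9% of it came from a partial copy on an alternate haplotype of chromosome 6 and the entry on chromosome 6 itself read 448 FPKM. The first place of *RPS18* thus rested on how copies were summed.

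All 79 cytosolic ribosomal protein genes were expressed and 73 of them had at least 100 FPKM in every library. Together they held 15.4% ± 0.21 of coding FPKM. The lowest members were *RPS26* with 20.5 FPKM, *RPL14* with 51.2 FPKM and *RPL36A* with 53.7 FPKM. Ribosomal protein genes have many processed pseudogenes whose reads may be shared, so single members are uncertain. A list of translation factors, most of them elongation factors, which bring tRNA to the ribosome and move it along, was expressed in 10 of 10 and held 1.47% ± 0.0042. It also holds the initiation factors *EIF4A1* and *EIF1* and *TPT1*, a translationally controlled protein. *EEF1A1*, the common form of the tRNA carrier, had 1243 FPKM, and *EEF1A2*, known as the form of muscle and neurons, had 666, 649 and 649 FPKM and ranked 77 among coding genes.

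Glycolytic enzymes held 2.87% ± 0.033 of coding FPKM, with 15 of 16 expressed. The exception was *ALDOC*, the aldolase of brain, at 0.302 FPKM, and *HK2*, the hexokinase induced in many tumors, had 3.60 FPKM. *PKM*, pyruvate kinase, read 1821, 1764 and 1770 FPKM, and the transcript of the M2 form carried 96.8% of it. The actin and tubulin cytoskeleton (24 of 24 expressed) held 4.12% ± 0.068, ferritin, thioredoxin and antioxidant enzymes (19 of 19) 2.51% ± 0.056 and nuclear subunits of oxidative phosphorylation (37 of 37) 1.69% ± 0.020. Annexins and S100 proteins (17 of 22) held 1.65% ± 0.019 and chaperones (26 of 26) 1.61% ± 0.010. Class I HLA genes, which present peptides to T cells, were expressed in 6 of 7, and *HLA-G* was not. Sums of these genes include the alternate haplotypes of chromosome 6, and *HLA-B* with 90.7 FPKM had 14.9 FPKM on chromosome 6 itself and *HLA-C* with 104 FPKM had 9.22 FPKM there. Together the class I genes held 0.132% ± 0.0016.

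Start sites of a part of these abundant genes carried a sequence feature that was rarer elsewhere. Many mRNAs of the translation apparatus begin with a C followed by a run of pyrimidines, the 5′ terminal oligopyrimidine tract, through which their translation is tied to growth signals. RefSeq promoters (GRCh38.p14, 250 bases before to 50 after the start) were found for 15295 coding genes of the table. A C at the annotated start followed by 4 pyrimidines, searched on the gene's strand, stood in 42.1% of genes at 1000 FPKM or more (16 of 38), in 14.4% of those between 100 and 1000 FPKM and in 2.67% of those at 0, against 4.67% of all coding genes with a promoter and 4.04% of all 27305 promoters. It was densest in ribosomal protein genes, 43 of 63 with a promoter (68.3%), and stood in 64 of 589 other genes at 100 FPKM or more (10.9%). Abundant genes without it included *RPL11* (1507 FPKM), *GAPDH* (3958 FPKM) and *S100A6* (2248 FPKM), so it did not separate abundant from silent genes. The following windows of 60 bases run from 40 before the start to 20 after. As picked examples they show the feature in 2 ribosomal proteins and an elongation factor and its absence in 2 silent kallikreins. Capitals mark the C with its 4 pyrimidines at the start and, in *EEF2*, a TATAAA 30 bases before it.
*RPLP2*, chr11:809927-809986, plus strand: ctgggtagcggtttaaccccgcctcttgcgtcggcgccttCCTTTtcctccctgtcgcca
*RPS16*, chr19:39435930-39435989, minus strand: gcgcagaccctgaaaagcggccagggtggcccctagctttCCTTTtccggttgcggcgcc
*EEF2*, chr19:3985444-3985503, minus strand: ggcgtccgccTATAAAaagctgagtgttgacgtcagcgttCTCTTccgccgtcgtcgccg
*KLK3*, chr19:50854875-50854934, plus strand: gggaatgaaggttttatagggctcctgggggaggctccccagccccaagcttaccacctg
*KLK2*, chr19:50873399-50873458, plus strand: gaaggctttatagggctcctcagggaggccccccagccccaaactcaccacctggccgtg

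The first 3 genes read 1895, 1568 and 1321 FPKM, and both kallikrein genes were listed at 0. CpG content of the promoters moved with level over a wider range of genes. The ratio of observed to expected CpG was at least 0.6 in 23.6% of promoters of coding genes at 0, in 35.6% of those above 0 and under 0.1 FPKM, in 57.8% from 0.1 to 1 FPKM, in 83.8% from 1 to 10 FPKM and in 89.7% from 10 to 100 FPKM, against 66.8% of all coding genes with a promoter and 49.0% of all promoters. Above 10 FPKM the share changed little, with 90.7% from 100 to 1000 FPKM and 89.5% above that. The ratio was 0.0719 for *KLK3* and 0.109 for *KLK2*, and 6 of 16 promoters of the prostate luminal list were at 0.6 or more (37.5%). TATAAA on the gene's strand, between 40 and 16 bases before the start, was most frequent at both ends, in 9.77% of genes at 0 and 7.89% of those at 1000 FPKM or more (3 of 38), and least frequent from 1 to 10 FPKM with 1.38%. It stood in 3.65% of all coding genes with a promoter and in 2.54% of all promoters, and in 0.707% of the latter on the opposite strand. These matches describe the annotated start, which may not be the start used in DU145 cells.

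**Figure D2:**
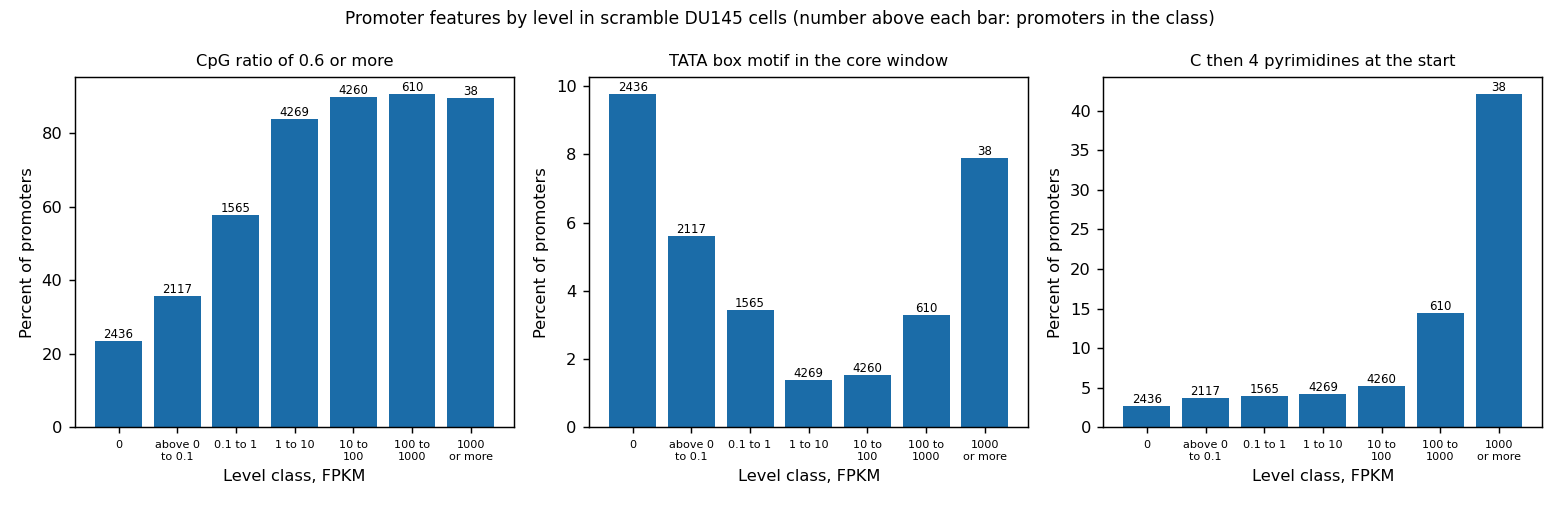
Share of promoters (percent) with a high CpG ratio, with TATAAA and with a C and 4 pyrimidines at the start, by FPKM class of the gene. CpG-rich promoters go from 23.6% at 0 to about 90% above 10 FPKM, and starts with pyrimidines reach 42.1% in the class of 1000 FPKM or more.

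Very short entries took a large part of the FPKM total and are set apart from the coding genes. The 2942 entries under 300 bases held 40, 40.1 and 41.4% of all FPKM in scramble 1, 2 and 3. Genes of microRNAs and small nucleolar RNAs numbered 2412, of which 1970 were at 0, and the 5 highest of them held 33.5% of all FPKM. Mature microRNAs are about as long as the sequences printed here and lack a poly(A) tail, and the library kit selects poly(A) RNA, so these entries are not a measure of mature microRNA. Of 1883 microRNA genes 1666 were at 0 in every library, against 53.3% of all genes without a coding transcript, and 48 had at least 1 FPKM, against the 11.9% given above. Of the 10 highest, 8 had a RefSeq hairpin to compare with coding transcripts, and *MIR1244-1* and *MIR1244-2* share 1 hairpin, which left 7 distinct hairpins. Of these 5 lay within 8 edits of a coding transcript, and 4 of the 5 matched exactly. Hairpins were compared in their own orientation only, so matches to the opposite strand were not searched. The mature sequences that RefSeq gives for the 7 highest entries follow, with the seed (bases 2 to 8) in capitals and GRCh38.p14 positions.
*MIR12136*, chr1:632668-632685, minus strand: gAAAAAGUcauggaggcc
*MIR3654*, chr7:133034860-133034878, minus strand: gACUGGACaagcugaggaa
*MIR4426*, chr1:192716333-192716349, plus strand: gAAGAUGGacguacuuu
*MIR10527*, chr12:63823663-63823685, plus strand: aAAGCAAAuguugggugaacggc
*MIR1282*, chr15:43793732-43793751, minus strand: uCGUUUGCcuuuuucugcuu
*MIR1244-1*, chr2:231713368-231713393, plus strand: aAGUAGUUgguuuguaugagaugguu
*MIR3655*, chr5:140647844-140647864, plus strand: gCUUGUCGcugcgguguugcu

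No seed was shared between these 7 sequences. *MIR12136* read 65427, 65933 and 76501 FPKM, more than 10 times any mRNA, and its hairpin had no coding transcript within 8 edits, nor had that of *MIR1282* (6178, 6992 and 5804 FPKM). *MIR3654* read 60177, 59075 and 64065 FPKM, and its hairpin matched exactly within *EEF1G*, an elongation factor subunit with 967 FPKM. *MIR4426* read 57079, 52119 and 58510 FPKM as a sum over 3 entries, and its hairpin also matched a coding transcript model exactly. *MIR1244-1* (2286, 2890 and 2343 FPKM) matched within *PTMA*, prothymosin alpha, and *MIR3655* (1549, 1739 and 1253 FPKM) within *IK*, a splicing factor. The hairpin of *MIR10527* (5422, 7578 and 6574 FPKM) was 1 edit away from *PABPC1*, the poly(A)-binding protein. Because of these entries the results that follow refer to coding genes unless another class is named. Leading noncoding genes whose entry spans at least 300 bases were *RPL13AP5* with 1127 FPKM and *ANXA2P2* with 712 FPKM, processed pseudogenes whose reads may come from their parent mRNA, followed by the snoRNA host *ZFAS1* with 607 FPKM and the ribosomal *RNA28SN2* with 365 FPKM. The *MIR4426* sum also met this length by 1 of its entries.

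The lineage of the cells was read from marker genes, and the pattern was epithelial without the prostate luminal secretory genes. Of 25 prostate luminal and androgen-response genes 9 were expressed and 14 were not detected, 10 of them at 0. *KLK3*, the gene of prostate-specific antigen, was listed at 0 FPKM in all 3 libraries, and so were *KLK2*, a related kallikrein, the prostate lineage factor *HOXB13* and *FOLH1*, the prostate-specific membrane antigen. *TMPRSS2*, an androgen-induced protease, had 0.00547 FPKM. The label prostate cancer line was therefore not matched by the secretory markers of prostate, and the description rests on the label. Other members of the list that also serve outside the prostate were present. *FKBP5*, a co-chaperone of steroid receptors, had 42.1 FPKM. *FOXA1*, the pioneer factor of endodermal and prostate epithelium, read 29.6, 30.4 and 29.4 FPKM. *ALDH1A3*, a retinaldehyde dehydrogenase, had 11.7 FPKM.

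Simple epithelial markers were expressed in 20 of 30 (66.7%) and 5 were not detected (16.7%), against 56.9% and 30.1% of all coding genes. *KRT7*, the keratin of simple glandular epithelia, at chr12:52233243-52255853, read 1029, 1012 and 1027 FPKM (1022 ± 9.24) and was by far the leading keratin. Other keratins of simple epithelia, *KRT18*, *KRT8* and *KRT19*, had 272, 230 and 153 FPKM, and *CD24*, a surface glycoprotein, had 198 FPKM. The adhesion molecules of epithelium were lower. *CDH1*, E-cadherin, read 4.55, 4.46 and 5.02 FPKM (4.68 ± 0.299), while *CDH3*, P-cadherin, had 43.4 FPKM, above every value of *CDH1*. *EPCAM*, an epithelial adhesion molecule, had 17.6 FPKM. *ESRP2*, an epithelial splicing factor, had 6.01 FPKM and its paralog *ESRP1* 0.102 FPKM, and *GRHL2*, a regulator of epithelial junctions, was at 0.

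Basal and squamous markers were expressed in 11 of 22 (50%) and 6 were not detected (27.3%), near the 56.9% and 30.1% of all coding genes. *SFN*, the 14-3-3 sigma protein of stratified epithelia, read 248, 232 and 238 FPKM (240 ± 7.99). *LAMB3*, a chain of laminin-332, had 124 FPKM, and the matrix receptors *CD44* and *ITGA6* had 35.8 and 23.4 FPKM, with 88.7% of *CD44* in the short standard transcript. The factors that define basal cells were missing, with *TP63* at 0, *KRT5* at 0.0147 and *KRT14* at 0.0110 FPKM. Other keratins of the list were low, with *KRT6B* at 0.655 and *KRT15* at 0.236 FPKM, and *DSG3*, a desmosomal cadherin, was not detected.

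Mesenchymal genes were expressed in 8 of 20 and 10 were not detected. *VIM*, the intermediate filament vimentin, at chr10:17228241-17237593, read 1096, 1081 and 1080 FPKM (1086 ± 9.03), and its range lay just above that of *KRT7*. *AXL*, a receptor kinase often raised in mesenchymal states, read 147.1, 147.4 and 144.3 FPKM, and *TGFBI*, a matrix protein, had 55.2 FPKM. Of the factors that repress epithelial genes *TWIST2* had 17.96, *ZEB1* 5.66 and *SNAI1* 3.65 FPKM, and *TWIST1* was at 0. The cadherins of mesenchyme *CDH2* and *CDH11* and the matrix genes *SPARC* and *POSTN* were at 0, and *FN1*, fibronectin, had 1.61 FPKM. *VIM* and *KRT7* were thus both high in the same libraries, in which *CDH2* was not detected.

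Neuroendocrine markers, which mark the small cell form of prostate cancer, were expressed in 3 of 22 and 16 were not detected. The exception in level was *UCHL1*, a ubiquitin hydrolase of neurons, with 673, 628 and 660 FPKM (654 ± 22.8, rank 78). *ENO2*, neuronal enolase, had 16.7 FPKM and *DLL3*, a Notch ligand, 3.41 FPKM. The defining factor *INSM1* and the granule protein *CHGB* were at 0, *CHGA* had 0.0216 FPKM and *SYP*, synaptophysin, 0.401 FPKM.

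Most markers of cells that a pure culture should lack were not detected, with the exceptions given here. Of 16 immune genes 3 were expressed and 12 were not detected, with *PTPRC*, *CD3D*, *CD3E* and *MS4A1* at 0. The expressed ones were *CD68*, a lysosomal protein not limited to macrophages, with 17.4 FPKM, *CD79A* with 2.73 FPKM and *CD14* with 1.11 FPKM. Fibroblast and smooth muscle genes were expressed in 1 of 14 (*TAGLN*, an actin-binding protein, 2.37 FPKM), endothelial genes in 1 of 10 (*ESAM*, a junction molecule, 1.28 FPKM) and genes of other organs in 2 of 20 (*MBP* with 12.9 FPKM and *ACTC1* with 2.24 FPKM).

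**Figure D3:**
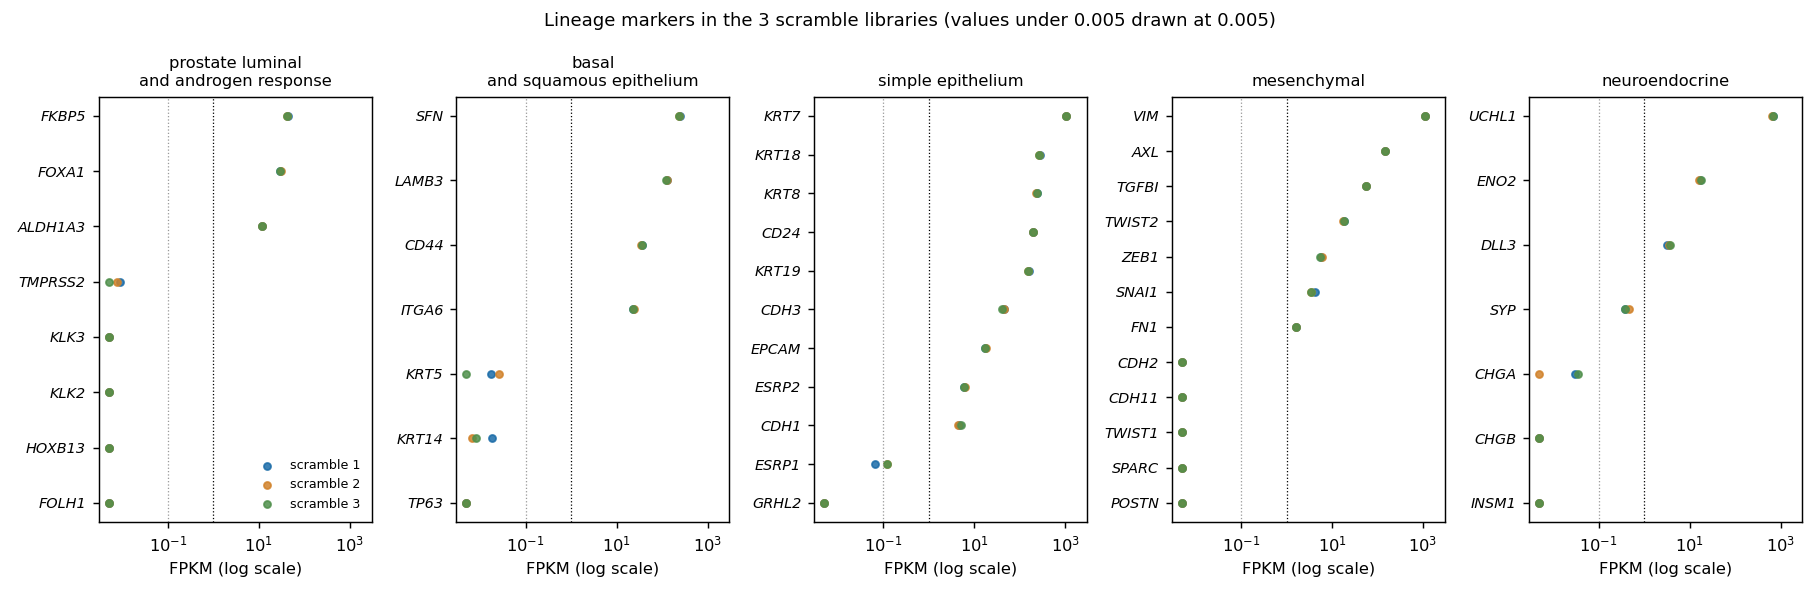
FPKM of the lineage markers named in the text in each scramble library (log axis, 1 point per library), grouped by lineage. *VIM* and *KRT7* lie together near 1000 FPKM with *UCHL1* just under them, while *KLK3*, *TP63* and *CDH2* sit at 0.

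Secreted proteins were led by cytokine-like and lysosomal products rather than by classical cytokines. Among 46 secreted epithelial genes outside the factor families 25 were expressed. *MIF*, macrophage migration inhibitory factor, read 922, 901 and 937 FPKM as a sum over 2 loci, with 460 FPKM on chromosome 22 itself. *PSAP* and *CTSD*, a precursor of lysosomal activators and a lysosomal protease, had 504 and 456 FPKM. Also high were *B2M*, the light chain of HLA class I, with 210 FPKM, *GRN*, progranulin, with 204, *CST3*, cystatin C, with 195, and *CLU*, the extracellular chaperone clusterin, with 161 FPKM.

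Growth factor families differed in how many members were expressed. EGF family ligands were expressed in 6 of 11. *AREG*, amphiregulin, read 40.8, 40.3 and 41.5 FPKM, followed by *EREG* with 13.6, *TGFA* with 7.49 and *HBEGF* with 6.56 FPKM. In the VEGF and PDGF family 7 of 9 were expressed, led by *VEGFA*, the main angiogenic factor, with 62.7, 60.3 and 60.2 FPKM, *VEGFB* with 42.2 FPKM and *PDGFB* with 12.4 FPKM. FGF ligands were expressed in 3 of 22, and the secreted *FGF2* had 4.01 FPKM beside 6.86 FPKM for *FGF11*, an intracellular member. Of 32 ligands of the TGF-beta superfamily 4 were expressed. *TGFB1* read 79.7, 72.6 and 76.7 FPKM, *TGFB2* had 11.7 FPKM, *GDF11* 4.02 and *BMP8B* 3.80 FPKM.

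Wnt ligands were expressed in 3 of 19 and 8 were not detected. *WNT7B*, a ligand of epithelial development, read 26.3, 26.6 and 26.4 FPKM (26.4 ± 0.150). *WNT3* (3.24 FPKM, with 1.08 on chromosome 17 and the rest on alternate haplotypes) and *WNT10B* (1.54 FPKM) followed. Secreted Wnt and BMP antagonists were expressed in 3 of 23: *DKK1*, which blocks the LRP coreceptors, with 33.7, 34.8 and 35.1 FPKM, *SFRP1*, which binds Wnts, with 11.1 FPKM and *FSTL3*, which binds activins, with 10.3 FPKM. *DKK1* exceeded *WNT7B* in every library.

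Cytokines were few. Chemokines were expressed in 5 of 38 and interleukins and interferons in 6 of 51. *CXCL8*, the neutrophil chemokine interleukin-8, read 7.23, 6.44 and 8.39 FPKM (7.35 ± 0.981), and *CXCL16* had 3.75 FPKM. *CSF1*, the growth factor of macrophages, was the leading cytokine with 80.1, 80.3 and 78.6 FPKM. It was followed by *IL18* with 17.2, *CLCF1* with 15.5 and *IL32* with 15.4 FPKM, then by the gp130 ligands *IL11* with 10.9 and *LIF* with 6.78 FPKM. *IL6*, another gp130 ligand, had 1.06 FPKM, while *TNF* and *IL1A* were at 0.

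Genes of matrix turnover were led by the inhibitors *TIMP1* and *TIMP2* and by urokinase. In the list of matrix metalloproteinases and their TIMP inhibitors 7 of 26 were expressed and 15 were not detected. *TIMP1* read 126, 124 and 128 FPKM and *TIMP2* had 112 FPKM, against 19.2 FPKM for *MMP14* and 12.96 FPKM for *MMP15*, the leading metalloproteinases, both anchored in the membrane. The secreted *MMP7* was at 0. Of the plasminogen system and serpins 8 of 20 were expressed. *PLAU*, urokinase, at chr10:73908832-73917494, read 99.4, 98.3 and 97.0 FPKM, with *SERPINH1*, the collagen chaperone, at 73.4, *TFPI*, an inhibitor of coagulation, at 46.4 and *SERPINE2*, a protease inhibitor, at 8.91 FPKM. The IGF family, with 4 of 10 expressed, showed binding proteins without ligands: *IGFBP4* had 118, *IGFBP6* 69.9, *IGFBP3* 13.04 and *IGFBP2* 2.41 FPKM, whereas *IGF1* had 0.00112 and *IGF2* 0.0884 FPKM.

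Surface receptors were led by integrins, TNF receptors and *AXL*. Integrin subunits were expressed in 12 of 26 and 13 were not detected. *ITGB1*, the common beta subunit, read 317, 336 and 323 FPKM (325 ± 9.57), and its partners *ITGA3*, *ITGA5* and *ITGA6*, for laminin and fibronectin, had 218, 27.8 and 23.4 FPKM. TNF receptor family genes were expressed in 13 of 29, with *TNFRSF1A*, TNF receptor 1, at 192, 187 and 186 FPKM, *TNFRSF12A*, the TWEAK receptor, at 119, *LTBR*, the lymphotoxin receptor, at 102 and *TNFRSF21* at 30.003 FPKM. Toll-like receptors were expressed in 1 of 10, namely *TLR6* with 1.62 FPKM.

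Receptor tyrosine kinases were expressed in 23 of 58 and 29 were not detected. After *AXL* (146 ± 1.73 FPKM) came *EPHA2*, an ephrin receptor, with 34.1, 33.1 and 34.1 FPKM, *ERBB2*, the HER2 receptor, with 32.1, 33.1 and 31.7 FPKM, and *EGFR*, the receptor of amphiregulin, with 28.9, 30.8 and 27.9 FPKM. *AXL* stood clear of all others, whereas the ranges of *EPHA2* and *ERBB2* overlapped. *RET*, *KIT* and *ALK*, kinases of other lineages, were not detected. TGF-beta receptor genes were expressed in 7 of 14, led by *TGFBR2* with 24.1, *TGFBR1* with 8.90, *ACVR1* with 7.25 and *ACVR1B* with 6.07 FPKM.

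Frizzleds and Wnt coreceptors were expressed in 10 of 18 (55.6%) and 3 were not detected (16.7%), against 56.9% and 30.1% of all coding genes. *FZD6*, the target of the hairpins in the other libraries, at chr8:103298494-103332866, read 20.92, 20.54 and 20.04 FPKM in the scramble libraries (20.5 ± 0.441). It was second in its list to *LRP5*, a coreceptor of canonical Wnt signaling, with 24.2 FPKM, and led the Frizzleds, ahead of *FZD2* with 10.2 FPKM. *LGR4*, a receptor of R-spondins, had 13.8 FPKM. *FZD3*, which like *FZD6* acts in planar polarity, read 0.549, 0.527 and 0.615 FPKM (0.563 ± 0.0458).

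Nuclear receptors were expressed in 22 of 48 and 19 were not detected. The leading members were the oxysterol receptor *NR1H2* with 40.6 FPKM, the fatty acid sensor *PPARD* with 29.99, the orphan *NR2F6* with 27.9 and the glucocorticoid receptor *NR3C1* with 26.2 FPKM. Of the other steroid receptors *PGR* was at 0 and *ESR1* was not detected. The glucocorticoid receptor was thus present while the progesterone and estrogen alpha receptors were not.

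Cytokine receptors were expressed in 22 of 55. *OSMR*, the oncostatin M receptor, read 85.9, 90.7 and 85.3 FPKM. *IFNGR2*, a chain of the interferon gamma receptor, had 23.0 FPKM (9.86 on chromosome 21), *IL27RA* 20.7, *IL13RA1* 19.1 and *IL6ST*, the shared chain gp130, 15.6 FPKM. Chemokine receptors were expressed in 0 of 22, and 18 were not detected. *CXCR4*, the receptor of CXCL12, was at the limit with 1.02, 0.985 and 0.963 FPKM.

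Ligands and receptors were not always found together in these cells. *CSF1* was high while its receptor *CSF1R* had 0.00685 FPKM, and *OSMR* was high while its ligand *OSM* was at 0. *VEGFA* stood beside 0.00294 FPKM of its kinase receptor *KDR* and 0.00187 FPKM of *FLT1*, although the coreceptor *NRP1* had 44.0 FPKM. *CXCL8* faced *CXCR1* at 0.00342 FPKM and *CXCR2* at 0, and *PDGFB* faced *PDGFRB* at 0.0397 FPKM. In these cases 1 side was present alone, apart from the coreceptor *NRP1* of *VEGFA*. *TNF* was at 0 beside its abundant receptor, and *HGF* was at 0 beside 14.2 FPKM of its receptor *MET*. *IGF1R*, the receptor of the missing IGF ligands, had 10.6 FPKM. Both sides were present for *GAS6* (14.1 FPKM) and *PROS1* (14.4 FPKM) with *AXL*, for *PLAU* with its receptor *PLAUR* (31.6 FPKM), for *AREG* with *EGFR*, for *TGFB1* with *TGFBR2*, for *LIF* with *LIFR* (5.76 FPKM) and for *IL11* with *IL11RA* (4.16 FPKM). These are transcript levels and say nothing of protein at the surface. The pairs beyond the leading members of the lists were chosen after their values were seen.

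Surface antigens used as drug targets were expressed in 22 of 31. *SLC39A6*, a zinc transporter, had 91.2 FPKM, *NECTIN2* 52.5 and *PVR*, the poliovirus receptor, 37.3 FPKM. *FOLH1*, *CEACAM5*, *CLDN18* and *NECTIN4* were not detected. Efflux transporters were expressed in 7 of 12. *ABCC3*, an exporter of organic anions, read 50.7, 49.3 and 45.1 FPKM and *ABCC1* summed to 23.0 FPKM (11.3 on chromosome 16), while *ABCB1*, the P-glycoprotein, was not detected.

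**Figure D4:**
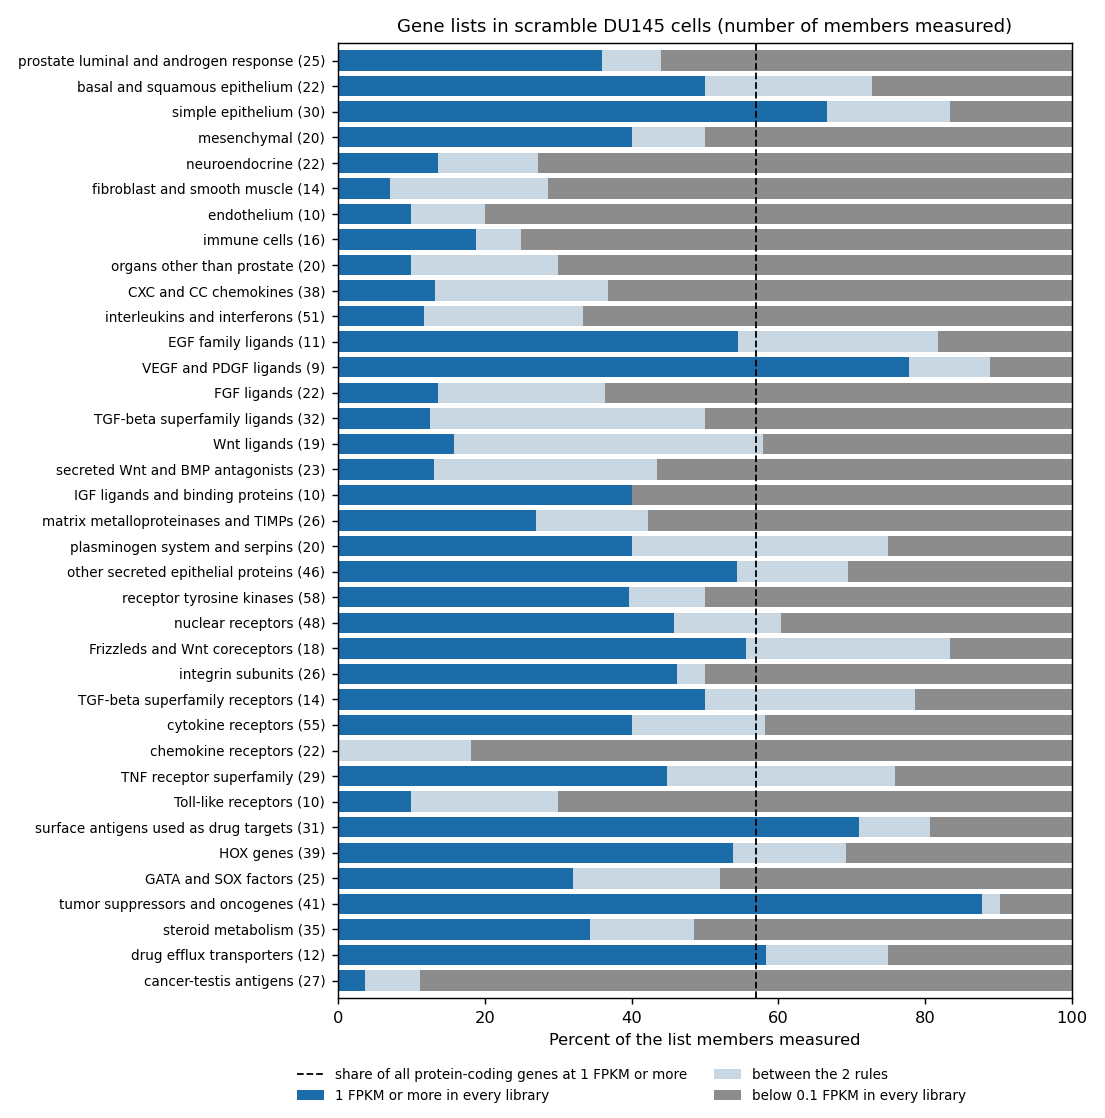
Share of the measured members of each gene list (percent) at or above 1 FPKM in every library and below 0.1 FPKM in every library, with a line at the share of all protein-coding genes at or above 1 FPKM (56.9%). The lists of abundant gene classes, such as ribosomal proteins and glycolytic enzymes, are not drawn. Tumor suppressors and oncogenes are highest with 36 of 41, and chemokine receptors (0 of 22) and cancer-testis antigens (1 of 27) are lowest.

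Among regulators the HOX genes showed an uneven cluster pattern. These homeobox genes lie in 4 clusters that record position along the body axis. In all 21 of 39 were expressed (53.85%) and 12 were not detected (30.8%), near the 56.9% and 30.1% of all coding genes. By cluster 6 of 11 *HOXA*, 7 of 10 *HOXB*, 7 of 9 *HOXC* and 1 of 9 *HOXD* genes were expressed, the last being *HOXD9* with 1.91, 1.37 and 1.32 FPKM, and the other 8 *HOXD* genes were not detected. The highest were *HOXB7* with 32.06, 31.48 and 32.99 FPKM, *HOXB9* with 23.0, *HOXC10* with 20.1 and *HOXA10* with 10.7 FPKM. Within the *HOXB* cluster the prostate gene *HOXB13* was at 0. GATA and SOX factors were expressed in 8 of 25, led by *SOX12* with 25.5, *SOX4* with 15.1, *SOX9*, a factor of prostate epithelium and progenitors, with 7.84 and *SOX13* with 7.43 FPKM, and *GATA2*, a factor also of blood progenitors, had 6.61 FPKM.

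Tumor suppressors and oncogenes were expressed in 36 of 41. The highest was *CDKN2A*, which encodes the cell-cycle inhibitor p16INK4a and the nucleolar protein p14ARF from separate first exons, with 361, 348 and 363 FPKM (357 ± 8.51). The p14ARF transcript carried 87.0% of it and the p16INK4a transcript 12.2%. Survival genes *BCL2L1* and *MCL1* had 92.3 and 90.4 FPKM against 0.0917 FPKM for *BCL2*. *RB1*, the retinoblastoma protein, had 13.4 FPKM. These levels do not show whether the transcripts are intact. *ERG* and *MYCN* were at 0.

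The signaling, cell-cycle, chromatin and repair genes that the study names were all expressed. *AKT1* read 89.46, 88.40 and 90.002 FPKM, *STAT3* 44.1, 45.7 and 42.5 FPKM and *SRC* 11.2, 11.9 and 11.3 FPKM. Of the mitotic kinases *PLK1* had 87.6 ± 0.953 FPKM, *PKMYT1* 24.1 ± 0.708 and *WEE1* 8.39 ± 0.459. The chromatin genes *ARID1A*, *KDM5B*, *KMT2D* and *KMT2A* had 14.7, 7.26, 6.52 and 4.76 FPKM, and the repair genes *XRCC1*, *ENDOV*, *POLE* and *XPC* 19.9, 10.7, 9.73 and 7.75 FPKM. *ATM*, the kinase of the DNA double-strand break response, was lowest and most variable with 2.46, 3.71 and 3.22 FPKM (3.13 ± 0.625).

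Steroid metabolism genes were expressed in 12 of 35 and 18 were not detected. The leading ones, *HSD17B10* (57.4 FPKM), *HSD17B4* (37.0), *HSD17B11* (31.1) and *HSD17B12* (14.6), also act in the oxidation or synthesis of fatty acids and other lipids. *SRD5A1*, a 5-alpha-reductase, had 8.89 FPKM and *AKR1C3*, which makes testosterone from androstenedione, read 7.08, 7.51 and 8.07 FPKM. The prostate 5-alpha-reductase *SRD5A2* was at 0 and *CYP17A1*, needed for androgen synthesis from cholesterol, was not detected. Cancer-testis antigens were expressed in 1 of 27, *PRAME* with 7.29 FPKM (3.64 on the primary chromosome 22), and 24 were not detected.

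The libraries were close to each other. Pearson's r of log2(FPKM + 1) across coding genes was 0.998 to 0.999 for the 3 pairs, a value across genes, which are not independent replicates. Over the 11040 coding genes whose mean reached 1 FPKM the median coefficient of variation (CV, SD over mean of the 3 libraries) was 3.57%. Among the 5799 whose mean reached 10 FPKM the median was 2.82%, and 40 of these exceeded 10% (0.690%) and 2 exceeded 20%. Spread fell with level. For genes with a single entry the median CV was 13.3% from 0.1 to 1 FPKM, where counting alone would give 13.1%, and 1.98% at 1000 FPKM or more, where counting alone would give 0.577%. At low levels the spread was thus close to the counting value taken from the bounds, and at high levels it exceeded that value.

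No library alone carried the excess. The ratio of the median spread to that of counting was taken over coding genes with a single entry and a mean of at least 10 FPKM. Without scramble 1, 2 or 3 it was 1.52, 1.55 or 1.74, against 1.60 with all libraries. Scramble 2 and 3 were the closest pair, with an SD of log2 differences across genes of 0.09, against 0.11 for both pairs with scramble 1. Scramble 2 differed by transcript length. The difference of scramble 2 from the mean of the other libraries followed transcript length across 10939 genes with Spearman's rho of 0.399, against -0.164 for scramble 1 and -0.271 for scramble 3, which are not independent of each other. Among the 2737 genes with the shortest transcripts (217 to 2062 bases) the median log2 difference of scramble 2 was -0.03, and among the 2734 with the longest (4932 to 34526 bases) it was 0.05. Ribosomal protein genes, which are short, were lowest in scramble 2 in 55 of 79 cases, against 3262 of all 10939 genes (29.8%). RNA quality was not measured, and its part was not tested.

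The widest and the narrowest genes are extremes, given by value, and do not describe the spread of all coding genes. The histone gene *H2AC19* read 37.6, 0.298 and 0.287 FPKM, while its near-identical copy *H2AC18* read 100, 128 and 141 FPKM. Summed, the pair read 138, 129 and 141 FPKM, a CV of 4.81%, so the wide spread of *H2AC19* was not seen in the sum. How reads were divided between the copies was not tested. Others among the 10 widest were *MT1B*, a metallothionein with close paralogs (8.59, 10.02 and 13.12 FPKM), *FRG1*, which has many copies (10.2, 11.3 and 14.1 FPKM), and *RPS10-NUDT3*, a readthrough of neighboring genes. Also among them was *MLF2*, a myeloid leukemia factor homolog, which read 84.5, 63.3 and 75.0 FPKM. Narrowest was *SLC22A31*, a putative transporter, with 28.52, 28.55 and 28.53 FPKM, together with *HNRNPDL*, *SFRP1*, *NAP1L4* and *MAP3K3*. With 3 libraries, so small a spread can arise by counting and carries no statement on the gene.

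**Figure D5:**
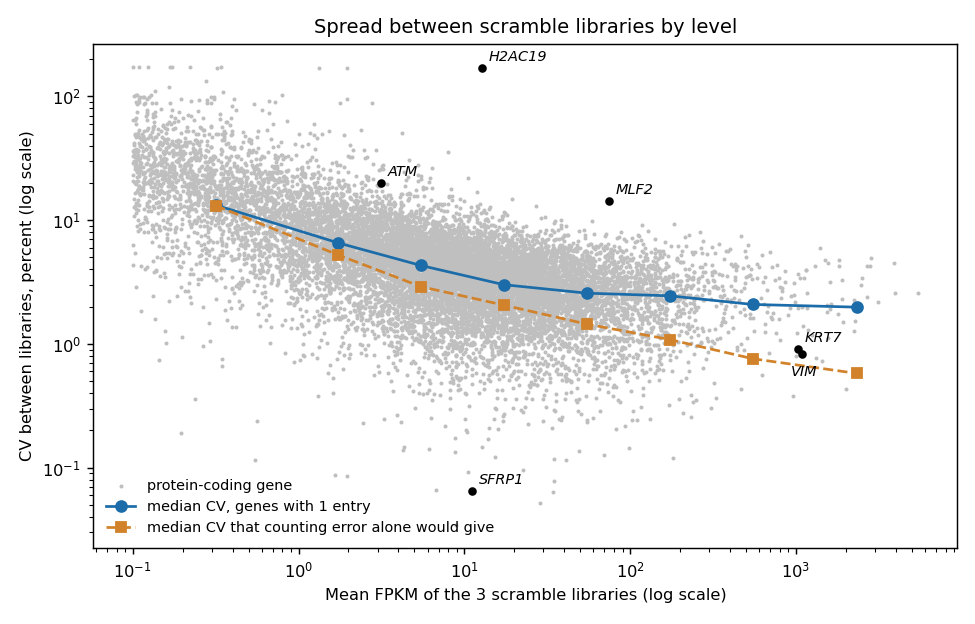
CV between the 3 scramble libraries (percent) against mean FPKM (log axis), with the median by class of level and the value that counting alone would give. The median falls from 13.3% between 0.1 and 1 FPKM to 1.98% at 1000 FPKM or more, and lies above the counting value from 1 FPKM upward.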

How the data were processed

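Stranded poly(A)-selected libraries (TruSeq Stranded mRNA) were made by the authors, and the submitters' processing notes name STAR, Cufflinks and hg38, without versions. The study's methods name a mouse build, but the deposited loci are human hg38. The deposited values are FPKM per RefSeq transcript, computed by the authors with Cufflinks for each library. Whether multi-mapped reads were reweighted is not given in the sources used here.

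Of 73240 accessions 72639 matched a RefSeq gene (GRCh38.p14), and the 601 unmatched held 0.411 to 0.423% of FPKM. Entries were summed per gene, alternate haplotypes included (9374 entries), and 25 of 27898 genes, among them *CANX*, were left out for a failed Cufflinks status. Of 11040 coding genes whose mean reached 1 FPKM, 345 had under 2 in 3 parts of their value on primary chromosomes. Python 3.11.15, pandas 2.3.3, numpy 2.4.6 and scipy 1.17.1 were used. The depth estimate and the spread were also run on simulated data. The simulated bounds were built as counting error, so this run could not check that assumption for the deposited bounds. With 1 group there was no test. Some genes that the naming rule selects are not reported here.

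The members and lists were chosen with earlier results of these data known. Named genes are the 20 highest coding genes, the 4 highest of each list and members in a described role that were not detected, genes the study names, the 10 widest and 5 narrowest by CV at a mean of 10 FPKM or more, and the 5 highest noncoding genes of at least 300 bases. *EEF1A2*, *HK2*, *ALDOC* and other list members outside this rule, and the transcript shares, were chosen after their values were seen. Alternatives were other ways of summing entries, other thresholds and filters, other scales of spread, and each library left out.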

Additional observations from a re-analysis of the deposited data

How the results depend on the processing

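No paired analysis was possible because the 3 libraries form 1 group and no result comes from a test. The median CV (3.57%) was 5.29% with the highest entry of each gene in place of the sum, 3.99% with coding genes scaled to a common sum, 2.82% at a mean of at least 10 FPKM and 5.06% without a filter. As an SD of log2(FPKM + 1) it was 0.0458 and of log2(FPKM + 0.1) 0.0509, and with 1 library left out it was 2.70 to 3.32%, where 2 libraries read lower by construction. The share of the 100 most abundant genes (28.8%) was 28.1% on primary chromosomes, 29.2% with coding accessions and 31.5% with the highest entry, and 28.7 to 29.01% with 1 library left out. Coding genes at 0 numbered 3168, and 5766 lay below 0.1 FPKM. The ratio of spread to counting (1.60) was 1.52 to 1.74 with 1 library left out. The 11936 genes at or above 1 FPKM ranged from 10585 to 13162 over the alternatives. Of 267 named genes 18 moved over 1.5-fold on primary chromosomes, 22 with coding accessions, 62 with the highest entry and 1 or 2 with 1 library left out, and the leading member was the same in 45 to 48 of 48 lists.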

Other observations

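Several abundant genes lie outside the lists above and were chosen after their values were seen, so they are given as values only. Metallothionein *MT2A*, which binds zinc and copper, read 1524, 1531 and 1582 FPKM, and *LGALS1*, the lectin galectin-1, had 1165 FPKM. Of the enzymes of serine synthesis *PSAT1* read 475, 488 and 503 FPKM, *PHGDH* 179, 182 and 187 FPKM and *PSPH* 31.0, 29.5 and 30.4 FPKM, beside 362 FPKM of *ATF4*, a factor that controls amino acid genes, 164 of *ASNS*, asparagine synthetase, and 160 and 157 of *SLC7A5* and *SLC3A2*, the chains of a leucine transporter. Lipid desaturases *SCD* and *FADS2* had 357 and 226 FPKM, the caveolar coat genes *CAV1* and *CAVIN1* 227 and 248 FPKM, and the chromatin protein *HMGA1* 468 FPKM. The nuclear RNAs *MALAT1* and *NEAT1* had 18.1 and 6.10 FPKM, below the snoRNA hosts *SNHG29* (349), *GAS5* (271) and *SNHG5* (198 FPKM).

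A lineage factor not usual for prostate was also present. *NKX2-1*, the homeobox factor of lung and thyroid epithelium, at chr14:36516397-36520232, read 52.4, 50.8 and 49.3 FPKM (50.8 ± 1.57, rank 1567). *SFTA3*, whose annotated span overlaps it and may share reads, read 33.5, 31.67 and 33.003 FPKM and *SFTA1P*, on chromosome 10, 42.6, 39.6 and 45.1 FPKM. Products of the differentiated organs were low or missing: *SFTPC*, a surfactant protein, read 0, 0.232 and 0.185 FPKM, *TG*, thyroglobulin, was at 0, and *PAX8*, a thyroid factor, had 0.0773 FPKM. All 3 libraries showed the same pattern.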
